A study of Mus musculus with 4 samples.

Results

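YAP sites lying between genes, 10 to 100 kb from the nearest protein-coding gene, were described in mouse epidermis with and without BMAL1. A peak was taken as a member when its summit, the position of highest signal, lay outside every protein-coding gene span and 10 to 100 kb from the nearest one. The wild-type (WT) list held 7125 such peaks of 36576 (19.5%), and the knockout (KO) list held 3173 of 14879 (21.3%). The choice used position only and no measured value.

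YAP binding was profiled by ChIP-seq (immunoprecipitation of chromatin, then sequencing) in epidermal cells of adult mice, 18 to 25 weeks old, killed at Zeitgeber time 4 (ZT4, 4 h after lights on). The groups were Bmal1 WT and Bmal1 KO. The labels also write Bmal1cKO for the knockout mice, and the sources used here name neither the cells in which Bmal1 was deleted nor the driver of that deletion. Each genotype had 1 peak list, named as pooled without saying of what, so no value has a replicate error and no test was run. All differences below are between these libraries, and genotype, library and ChIP efficiency cannot be told apart.

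YAP is a transcriptional co-activator held back by the kinases of the Hippo pathway and brought to DNA by TEAD transcription factors. Much of its binding is known to fall at enhancers, regulatory sequences that can lie far from the gene they act on and that often also carry sites for AP-1, the FOS and JUN family of factors. BMAL1, encoded by Arntl, drives transcription in the core loop of the circadian clock. The gene nearest to a distal site is a name for its place and need not be the gene it regulates.

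The sequence under these sites could be read where a member summit fell within the RefSeq start window of a long non-coding RNA (lncRNA), the 300 bp from 250 bp before to 50 bp after an annotated start (GRCm38.p6, the build called mm10). There were 118 such windows of 109 lncRNAs, and they held the summits of 107 sites with a median of 62 WT reads. These are a small part of the 7125 intergenic WT sites and all lie at lncRNA starts. The sequence at the other sites was not read, so the shares below describe these windows and not the whole class. The TEAD core, GGAATG or its complement CATTCC, was present in 28.0% of these windows (exact 95% interval 20.1 to 37.0%). It was present in 17.8% (16.6 to 19.1%) of 3702 lncRNA start windows of the same distance zone without a WT peak, and in 14.6% of all 32585 windows. The AP-1 letters TGANTCA, which read the same on both strands, were in 22.9% of windows with a member summit (15.7 to 31.5%), 10.9% (9.95 to 12%) of the zone's windows without a peak and 7.85% of all windows. At least 1 of these motifs was found in 45.8% against 26.9%, and the intervals over windows did not overlap for either motif. Some lncRNAs have several near-identical windows. With 1 window per lncRNA, the TEAD core was in 26.6% of 109 (18.6 to 35.9%) against 18.1% of 2958 (16.7 to 19.5%), and these intervals overlapped. The AP-1 letters were then in 22.9% (15.4 to 32.0%) against 11.1% (9.95 to 12.2%). GC content moved with this difference, with a mean of 52.9% (SD 7.88) in windows with a member summit and 46.9% (SD 6.54) in those without a peak, and its part in the result was not tested. Windows holding the summit of a WT peak of another position class had the TEAD core in 15.7% and the AP-1 letters in 6.04%, with a mean GC content of 62.5%. These windows and the set of all windows were not limited to lncRNA starts of the zone, so they are not like-for-like comparisons. The motifs can share 2 letters at their ends, and a match is a description of the letters, not a binding site.

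Windows are shown 5′ to 3′ on the strand of the lncRNA, with TEAD cores and AP-1 letters in capitals, for strong sites with and without these motifs and for sites with small and large KO differences. At Gm40804, near Sdr9c7 (chr10:127925187-127925486, minus strand), at Gm35439, near Lelp1 (chr3:92169935-92170234, plus strand), and at Gm51933, near Tnrc6c (chr11:117568598-117568897, minus strand), the window holds AP-1 letters, and at Gm51933 a TEAD core as well.
Gm40804: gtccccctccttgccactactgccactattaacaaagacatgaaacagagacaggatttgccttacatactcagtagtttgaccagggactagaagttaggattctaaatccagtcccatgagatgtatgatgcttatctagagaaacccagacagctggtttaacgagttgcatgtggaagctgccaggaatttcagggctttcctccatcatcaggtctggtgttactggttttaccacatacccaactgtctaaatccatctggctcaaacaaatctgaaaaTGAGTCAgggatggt
Gm35439: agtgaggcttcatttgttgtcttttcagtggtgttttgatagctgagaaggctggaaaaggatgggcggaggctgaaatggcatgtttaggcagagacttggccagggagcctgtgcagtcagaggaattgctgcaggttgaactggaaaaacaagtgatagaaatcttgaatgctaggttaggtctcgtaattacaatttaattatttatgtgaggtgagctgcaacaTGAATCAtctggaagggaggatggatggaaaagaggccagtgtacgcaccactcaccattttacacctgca
Gm51933: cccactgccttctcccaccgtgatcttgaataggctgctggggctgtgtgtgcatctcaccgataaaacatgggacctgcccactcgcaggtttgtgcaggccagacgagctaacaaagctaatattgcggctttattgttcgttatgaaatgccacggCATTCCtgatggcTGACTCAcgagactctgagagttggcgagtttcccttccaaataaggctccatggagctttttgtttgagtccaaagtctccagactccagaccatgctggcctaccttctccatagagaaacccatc
The Gm40804 site had 222 WT and 177 KO summit reads, the Gm35439 site 208 and 141, and the Gm51933 site 192 and 129. Capitals mark matches anywhere in a window, and these can lie away from the summit. The letters TGANTCA take any base at N, as in TGAATCA at Gm35439. A TEAD core alone is present at Gm51643, near Mapkapk2 (chr1:131112545-131112844, plus strand), at Gm38543, near Fos (chr12:85451801-85452100, plus strand), and at Snhg5, near Zfp949 (chr9:88522848-88523147, minus strand). Gm33122, near Wdr11 (chr7:129651809-129652108, minus strand), holds neither motif.
Gm51643: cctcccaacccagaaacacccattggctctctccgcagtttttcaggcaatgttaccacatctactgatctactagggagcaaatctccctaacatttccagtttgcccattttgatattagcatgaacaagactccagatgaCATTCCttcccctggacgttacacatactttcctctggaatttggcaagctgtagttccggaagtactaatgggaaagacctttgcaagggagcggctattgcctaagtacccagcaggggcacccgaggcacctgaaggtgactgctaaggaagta
Gm38543: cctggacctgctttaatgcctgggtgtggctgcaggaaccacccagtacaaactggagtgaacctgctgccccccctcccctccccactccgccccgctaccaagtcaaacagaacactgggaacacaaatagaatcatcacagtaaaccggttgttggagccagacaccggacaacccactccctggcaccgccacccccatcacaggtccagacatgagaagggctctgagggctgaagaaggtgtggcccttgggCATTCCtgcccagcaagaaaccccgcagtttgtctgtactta
Snhg5: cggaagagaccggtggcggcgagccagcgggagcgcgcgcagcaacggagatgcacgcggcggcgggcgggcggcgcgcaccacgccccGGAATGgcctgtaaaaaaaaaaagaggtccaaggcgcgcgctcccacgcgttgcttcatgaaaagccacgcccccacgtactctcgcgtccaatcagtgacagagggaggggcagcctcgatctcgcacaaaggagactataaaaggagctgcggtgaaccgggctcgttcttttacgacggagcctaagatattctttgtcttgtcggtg
Gm33122: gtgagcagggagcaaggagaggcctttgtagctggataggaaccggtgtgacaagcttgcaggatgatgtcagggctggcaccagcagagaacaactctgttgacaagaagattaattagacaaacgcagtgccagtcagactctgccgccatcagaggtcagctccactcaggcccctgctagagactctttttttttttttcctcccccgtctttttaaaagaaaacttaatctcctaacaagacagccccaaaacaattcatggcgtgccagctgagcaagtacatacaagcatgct
The Gm51643 site had 163 WT and 95 KO reads, the Gm38543 site 192 and 92, the Snhg5 site 126 and 47, and the Gm33122 site 176 and 89. In these 7 examples the KO reads were lower than the WT reads at each site. The same held at all 854 strong intergenic sites with a KO peak, picked by WT reads and described below, and the 7 are among them. These examples therefore cannot show whether the KO difference goes with the motifs in the window, which was not tested.

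Reads here are the whole number of ChIP reads at a summit, recovered from the deposited fold and p of each peak, and the evenly spread background was 9.63 reads in both lists, so that the lists could be set side by side in these units. The 10 to 100 kb zone made up 22.3% of the sequence considered (583 Mb) and held 12.2 WT peaks per Mb. Gene spans held 18.9 per Mb, the flanks under 10 kb held 29.7, and sequence beyond 100 kb held 3.32. Intergenic WT peaks had a median of 63 reads, with quartiles of 48 and 89 and a range of 29 to 285. The medians were 60 inside genes, 62 in the near flanks and 60 beyond 100 kb. Strong sites, taken as 120 or more WT reads, made up 12% of the intergenic WT peaks (857 sites) and 10.1% of all WT peaks. In the KO list the intergenic peaks had a median of 54 reads, and 125 of them reached 120 reads. The peaks of the zone were a median of 504 bp wide in WT and 451 bp in the KO list.

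Within the zone, WT sites were less dense farther from genes. Their density was 15.5 per Mb at 10 to 20 kb, 13.9 at 20 to 30 kb, 12.2 at 30 to 50 kb, 9.87 at 50 to 75 kb and 7.94 at 75 to 100 kb. Median reads over the same bins were 64 in the nearest and 61.5 in the farthest. At the limits of the definition, the 643 WT peaks at 8 to 10 kb had a median of 66 reads and the 554 at 10 to 12 kb had 64. The 256 at 90 to 100 kb had a median of 63.5 reads and the 197 just beyond 100 kb had 59.

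**Figure D1:**
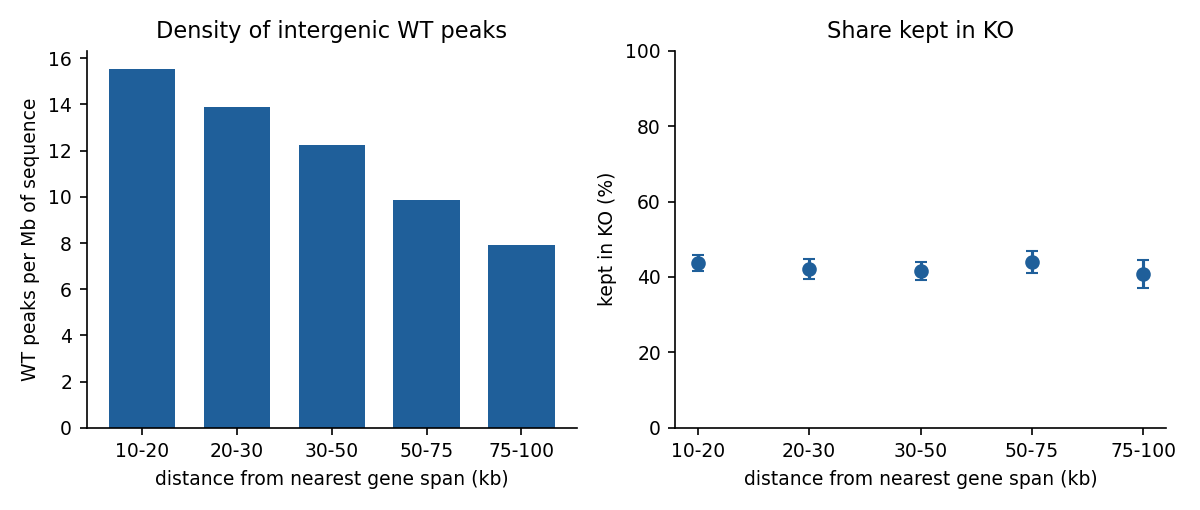
The left panel shows WT peaks per Mb of sequence and the right panel the share kept in KO (%), both by distance from the nearest gene span in kb. Bars are densities and error bars exact 95% intervals of the share, which cover counting error only. Density goes from 15.5 to 7.94 per Mb, while the kept share lies between 40.7 and 44.0%.

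A WT site was called kept when it shared at least 1 bp with a KO peak. All others were called WT-only. Of the intergenic WT sites 3041 were kept (42.7%, interval 41.5 to 43.8%) and 4084 were WT-only, against 39.1% kept over all WT peaks. The kept share was 37.4% inside genes, 39.6% in the near flanks and 41.3% beyond 100 kb. Kept sites had a median of 95 WT reads and WT-only sites 51, and no WT-only site had more than 125. The kept share of intergenic sites was 1.01% below 40 reads, 15.5% at 50 to 59 reads, 52.8% at 70 to 79 and 82.1% at 80 to 99 reads. All 391 sites of 150 or more reads were kept. When the other classes were weighted to the read bins of the intergenic sites, their kept shares were 41.9% inside genes, 41.1% in the near flanks and 44.0% beyond 100 kb. WT-only names a site without a called KO peak and does not show that binding was absent in KO. With the WT list reduced by score to the number of KO peaks, 78.3% of its intergenic sites were kept, against 77.8% of all WT peaks in it.

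**Figure D2:**
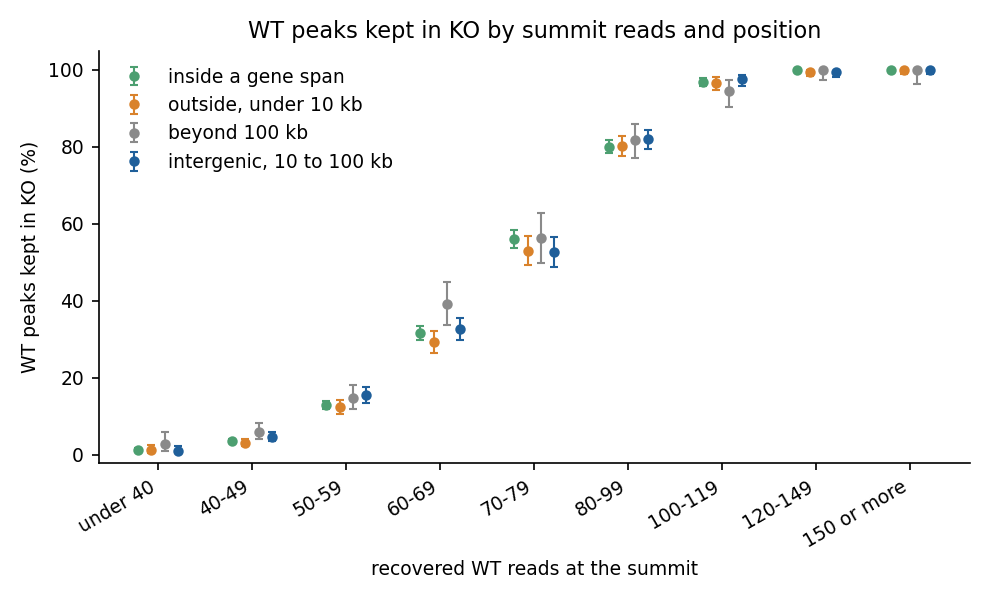
Share of WT peaks kept in KO (%, vertical axis) by bin of recovered WT summit reads (horizontal axis) for 4 position classes, with exact 95% intervals covering counting error only. The intergenic share goes from 1.01% below 40 reads to 97.5% at 100 to 119 reads, and all 4 classes reach 100% at 150 or more.

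The kept share of intergenic sites by distance was 43.7% at 10 to 20 kb from genes, 42.1% at 20 to 30 kb, 41.7% at 30 to 50 kb, 44.0% at 50 to 75 kb and 40.7% at 75 to 100 kb. By chromosome it ran from 36.5% of 395 sites on chromosome 6 to 47.9% of 351 on chromosome 10, with 38.4% of 99 on the X. Just outside the lower limit, at 8 to 10 kb, 45.4% were kept, and just beyond the upper limit 37.6%.

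KO sites in the zone were nearly all WT sites. Of the 3173 KO intergenic peaks, 3134 overlapped a WT peak (98.8%, interval 98.3 to 99.1%), against 99.0% of all KO peaks. The 39 without a WT peak were weak, with 30 to 50 KO reads and a median of 39. The 6 with the highest score lay nearest to Epb41l4a (50 reads), Nek7 (47), Irf1 (45), Stk24 (44), Mtap (43) and Acsl1 (43). Irf1 encodes an interferon-regulated transcription factor, and its KO-only site, at chr11:53752454-53752762, lay 17373 bp outside the gene on the side of Il5.

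At strong intergenic sites, where nearly every peak was called in both lists, KO reads were lower throughout. Of 857 strong WT sites 854 were kept, against 99.8% of strong WT peaks over all classes. These 854 had a median of 146 WT and 86 KO reads, and the median log2 ratio of KO to WT reads above background was -0.86 (quartiles -1.01 and -0.72), a ratio of 0.551. All 854 had a ratio below 0 on the log2 scale. The SD between sites was 0.233, beside 0.218 from read counting alone. A log2 ratio of -1 or lower was found at 221 (25.9%, interval 23.0 to 29.0%), against 30.7% of all strong kept sites, 31.6% inside genes, 33.3% in the near flanks and 32.2% beyond 100 kb. The medians of those classes were -0.88, -0.89 and -0.90. At sites of 150 or more WT reads the share at or below -1 was 13.8%, against 18.7% of all such sites. With the sites split by WT reads into 5 groups of like size, the median ratio was -0.92 in the weakest group (120 to 128 reads) and -0.74 in the strongest (185 to 285 reads). Strong sites were picked by WT reads, which favours high WT over KO reads, and the part of that choice was not tested. Kept intergenic sites from 40 to under 50 WT reads had a median log2 ratio of -0.29. Only 4.75% of the sites in that bin were kept, so it is a selected set as well.

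The WT peak was a median of 851 bp wide at strong kept intergenic sites and its paired KO peak 598 bp, against 873 and 601 bp over all strong kept sites. KO summits lay a median of 23 bp from the WT summit, and 81.9% lay within 50 bp, against 24 bp and 81.0% over all strong kept sites. At 53 of the 854 sites, more than 1 KO peak overlapped the WT peak, and over all classes at 203 of 3686.

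**Figure D3:**
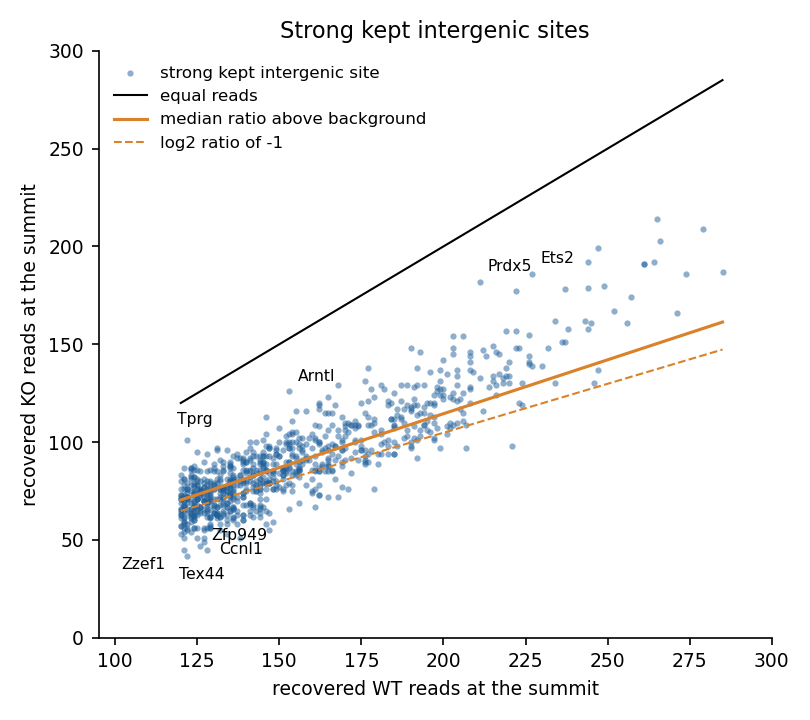
Recovered KO summit reads (vertical axis) against recovered WT summit reads (horizontal axis) at the 854 strong kept intergenic sites, 1 point a site. The black line marks equal reads, the solid orange line the median ratio of 0.551 above background and the dashed line a log2 ratio of -1, and all points lie below the line of equal reads. Sites were picked by WT reads, and the part of that choice was not tested.

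The kept intergenic sites with the highest score carried 247 to 279 WT reads. The first lay 47334 bp from Actr3, a gene of the actin-branching Arp2/3 complex, at chr1:125482465-125483616. It had 266 WT and 203 KO reads, a log2 ratio of -0.41 (counting SE 0.14). A site 16511 bp from Tbc1d16, which encodes a Rab GTPase-activating protein, had 274 and 186 reads (chr11:119126090-119127083, log2 ratio -0.58, SE 0.14). Grhl2 encodes a transcription factor of epithelial identity, and a site 34651 bp from it, at chr15:37197843-37198721, had 247 and 199 reads (-0.33, SE 0.14). Near Rps6ka1, the gene of the MAPK-pathway kinase RSK1, a site at chr4:133910033-133911125 had 271 and 166 reads (-0.74, SE 0.15). The other members of this group were sites near Ky (256 and 161 reads), Colec10 (279 and 209), Tex35 (264 and 192) and Hivep2 (247 and 137). All 8 sites had lower KO than WT reads, as had all 854 strong kept sites, and each KO count exceeded the WT median of 63. The 8 were picked by WT score, which favours high WT reads, and the part of that choice was not tested.

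Sites with the smallest KO difference, picked by that ratio and given without a test, kept most of their reads. At chr19:6892434-6893306, 13958 bp from Prdx5, which encodes an antioxidant peroxiredoxin, 211 WT and 182 KO reads were found (log2 ratio -0.22, SE 0.15). A site 63047 bp from Tprg had 122 and 101 reads (-0.30, SE 0.21). Ets2, which encodes an ETS transcription factor, had a site 42777 bp away at chr16:95658653-95660150 with 227 and 186 reads (-0.30, SE 0.15). A site 92100 bp from Arntl, the gene of BMAL1, at chr7:113085851-113086870, had 153 and 126 reads (-0.30, SE 0.19).

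At the other end of the range, also picked by the ratio, 4 sites had under 50 KO reads. A site 29163 bp from Tex44, at chr1:86456863-86457595, had 122 WT and 42 KO reads (log2 ratio -1.80, SE 0.32). Ccnl1, which encodes cyclin L, had a site 32784 bp away with 128 and 45 reads (-1.74, SE 0.31). The site nearest to Zzef1 had 121 and 45 reads (-1.65, SE 0.31). That nearest to Zfp949, whose summit lies in the Snhg5 start window printed above, had 126 and 47 reads (-1.64, SE 0.30), and its call as kept was lost when 50% reciprocal overlap was asked for.

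Only 3 strong intergenic sites had no KO peak. They lay 21660 bp from Edaradd (124 WT reads, chr13:12541918-12542744), 78348 bp from Macroh2a1 (125 reads, chr13:55994907-55995573) and 24414 bp from Rtn4r (120 reads, chr16:18176493-18177137). Edaradd encodes the adaptor of the ectodysplasin receptor used in hair follicle formation, Macroh2a1 a histone H2A variant and Rtn4r the Nogo receptor. The next WT-only sites by score lay near Gm52257 (104 reads), Dyrk1a (104), Thap12 (116), Prss55 (107) and Efcab2 (99).

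The next WT peak of any class was a median of 5649 bp from an intergenic site, against 5416 bp over all WT peaks. When peaks were joined at a stitching distance midway between 5 and 20 kb, the one usual for enhancer clusters, 30.4% of the intergenic sites stood alone, 42.8% were in clusters of 2 to 4 peaks and 26.8% in clusters of 5 or more. Over all WT peaks the shares were 30.5, 44.5 and 25.0%. The kept share was 36.1% for lone sites, 43.5% in clusters of 2 to 4 and 48.7% in clusters of 5 or more, against 33.5, 39.6 and 45.2% over all WT peaks. Median WT reads also differed, at 59, 64 and 67. Weighted to the reads of all intergenic sites, the kept shares were 41.7, 42.7 and 43.7%. At least 5 intergenic sites were found in 201 clusters, of which 6 had all and 6 had none of those sites kept.

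The cluster with the most members lay beside Pou3f1, which encodes a POU-domain transcription factor known from keratinocytes and Schwann cells. Its 19 intergenic sites spanned chr4:124564933-124645922, 12499 to 92452 bp from the gene, and all lay inside the 134.6 kb span of the lncRNA Gm2164. They had 33 to 140 WT reads, and 10 were kept, with a median log2 ratio of -0.83. The highest, nearest to the gene, had 140 WT and 90 KO reads, and its neighbour 128 and 69. A site with 90 WT reads in the cluster was WT-only, while sites with 59 and 65 reads were kept.

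Cxadr, which encodes a cell adhesion protein of tight junctions and virus receptor, had a cluster of 16 sites at chr16:78208208-78272464, of which 5 were kept. One site with 190 WT and 117 KO reads stood above the others, which had 37 to 116 WT reads. Sites with 96, 88 and 80 WT reads there were WT-only. Between Ptma, the gene of prothymosin alpha, and Tex44, 9 of 16 sites were kept (chr1:86437589-86504711). The log2 ratios of kept sites in this cluster ran from -1.80 to -0.33, with the lowest at the Tex44 site given above and 133 WT and 68 KO reads at the next strong site.

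Irf2bp2, which encodes a transcriptional corepressor, shared a cluster of 14 sites with Tarbp1 (chr8:126516903-126619716). In that cluster 8 sites were kept, among them one with 190 WT and 116 KO reads and one with 160 and 81.

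**Figure D4:**
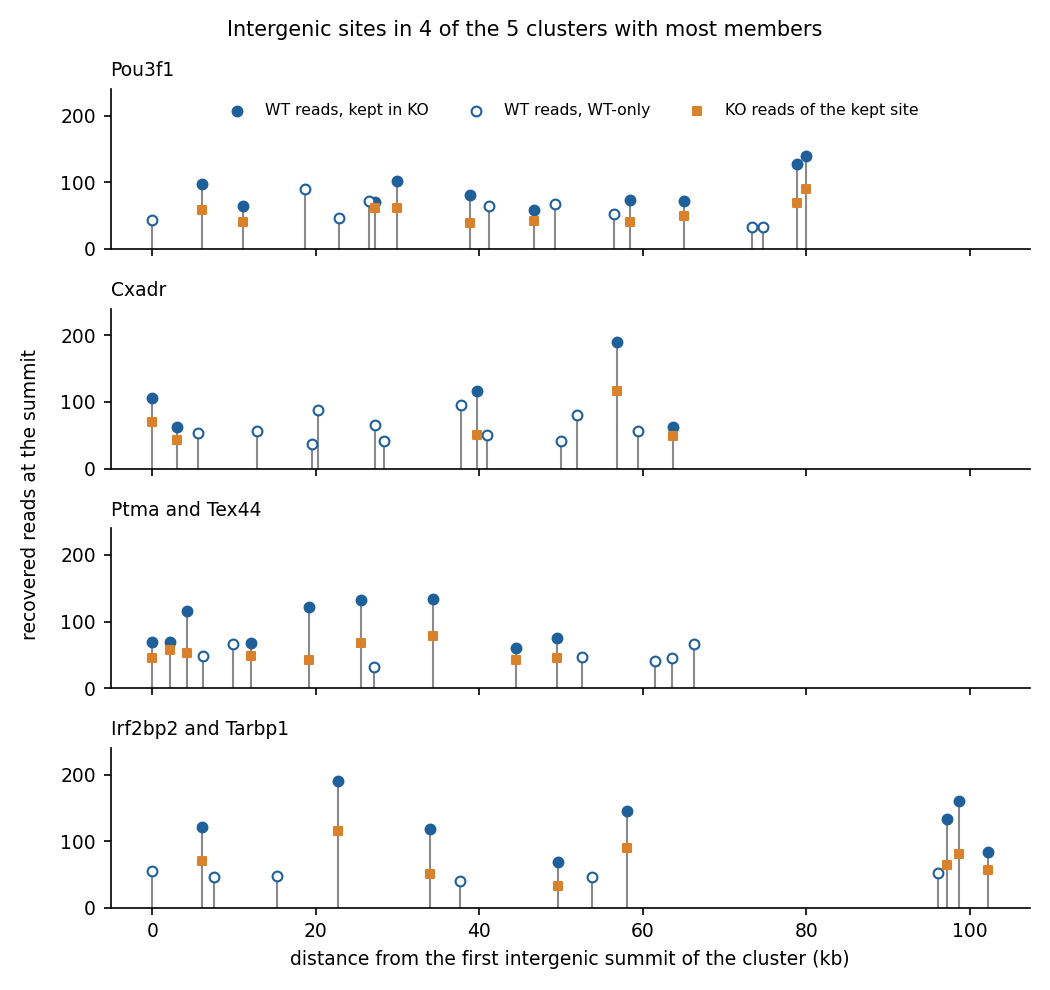
Recovered summit reads (vertical axis) of each intergenic site in 4 of the 5 clusters with most members, against the distance from the first intergenic summit of the cluster in kb (horizontal axis). Filled circles are WT reads of kept sites, open circles WT reads of WT-only sites and squares the KO reads of kept sites. Each square lies below its filled circle, and all open circles are under 100 reads.

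A lncRNA span covered 1540 of the 7125 WT sites (21.6%, interval 20.7 to 22.6%), beside 13.4% of the bases of the zone. Their kept share was 42.1%, against 42.8% outside lncRNA spans, and the median log2 ratio of strong kept sites was -0.88 against -0.85. The lncRNAs with the most members after Gm2164 were A230108P19Rik and Gm36660, with 8 each. A230108P19Rik, between Echdc3 and Usp6nl, had 5 kept sites, the strongest with 183 WT and 121 KO reads, and Gm36660, near Zfp36l1, had 3, the strongest with 109 and 61. In the 9 lncRNAs with 7 members each, 1 to 7 sites were kept. All 7 sites in 5031425E22Rik, beside Kmt2e, the gene of a chromatin regulator of the MLL family, were kept, with a strongest site of 170 and 103 reads and a lowest of 100 WT reads. Pvt1, the lncRNA neighbour of Myc, held 7 sites and 3 were kept, the strongest with 143 and 78 reads. These last 2 lncRNAs were chosen after their values were seen.

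In all, 2996 protein-coding genes of 21631 (13.9%) were nearest to at least 1 intergenic WT site, and 1766 of them to a kept one. Of these genes 1425 had 1 site, 365 had 5 or more and 45 had 10 or more. A WT peak inside the gene or within 10 kb was also present for 2324 (77.6%), against 44.4% of the other genes. The remaining 672 had intergenic sites only. Genes with an intergenic site were longer, with a median span of 33.5 kb against 17.3 kb over all protein-coding genes, and the part of gene length and spacing in these shares was not tested.

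Irf2bp2 and Pou3f1 had the most sites, 19 each. Of those of Irf2bp2 11 were kept, and of those of Pou3f1 10. Cxadr followed with 16 (5 kept). Otud1, which encodes a deubiquitinase, had 15 (6 kept) and Sp3, which encodes a zinc-finger transcription factor, 15 (5 kept). Ets2 had 14 intergenic sites, of which 9 were kept. Arf6, the gene of a small GTPase of membrane traffic, had 13 (8 kept), and Cebpb, which encodes a bZIP transcription factor of keratinocyte differentiation, 13 (5 kept). The most WT reads at any intergenic site were 148 for Otud1, 139 for Sp3, 148 for Arf6 and 133 for Cebpb. KO reads at the highest-scoring site of these genes were 59, 60, 85 and 76. The highest-scoring site need not be the one with the most WT reads, so these values are not pairs.

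The gene lists that follow were read against 13.9% of all genes with an intergenic site, 42.7% of all intergenic sites kept and a median log2 ratio of -0.86 at strong sites. No test was made of a list, and the empty sequence beside each gene was not allowed for. Gene names give the nearest gene only. A gene without an intergenic site can still have YAP peaks inside it or within 10 kb. In the lists from the Hippo genes to the TGF-beta and matrix genes, 60.7 to 100% of genes had such a WT peak. The share was 49.0% over all genes and 0 to 50% in the marker lists of other cells.

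Genes of the Hippo pathway and known YAP/TEAD targets had an intergenic site at 16 of 36, with 42 sites, of which 21 were kept (50.0%, interval 34.2 to 65.8%). Frmd6, which encodes a FERM-domain protein upstream of Hippo signalling, had 9 sites and 5 were kept. Its strongest, 30000 bp from the gene at chr12:70794919-70795861, had 204 WT and 134 KO reads (log2 ratio -0.64, SE 0.17). Amotl1 and Amotl2 encode angiomotin-like proteins that bind YAP. The single Amotl1 site had 199 and 127 reads (-0.69, SE 0.18), a kept call lost when summits had to lie within 200 bp. The strongest of 10 Amotl2 sites had 149 and 94 reads (-0.72, SE 0.21). Fjx1, a known YAP target, had 192 and 138 reads at chr2:102433710-102435045 (-0.51, SE 0.17). WT-only were the strongest sites of Mob1b (89 WT reads), which encodes a co-activator of the LATS kinases, and of Crim1 (63 reads). Genes of this list named after their values were seen are Tead1, with 119 WT and 74 KO reads at its strongest of 2 kept sites, and Yap1, whose 1 intergenic site had 50 WT reads and was WT-only. Also named so are the classic targets Ccn2, which had no intergenic site, and Ccn1, which had 3, of which 2 were kept.

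AP-1 family genes had an intergenic site at 10 of 19, with 46 sites, 24 of them kept (52.2%, interval 36.9 to 67.1%). Fosl2 had 197 WT and 120 KO reads at its strongest site (chr5:32182870-32183732, log2 ratio -0.76, SE 0.18). At Fosb the values were 197 and 119 (-0.78, SE 0.18), and at Atf3, the gene of a stress-induced bZIP factor, 185 and 100 (-0.96, SE 0.19). Fos had 9 sites, of which 5 were kept. Its strongest, at the Gm38543 start window printed above, had 192 and 92 reads (-1.15, SE 0.20), the lowest ratio of these 4 genes. The single site of Batf3 (47 WT reads) was WT-only.

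Clock genes had an intergenic site at 7 of 24, with 15 sites, of which 6 were kept (40%, interval 16.3 to 67.7%). Beside Arntl, with 6 sites and 3 kept, Bhlhe40 and Bhlhe41, the genes of the clock-linked repressors DEC1 and DEC2, had 111 WT and 52 KO reads (log2 ratio -1.26, SE 0.29) and 97 and 40 reads (-1.52, SE 0.34). The Bhlhe40 call was lost with 50% reciprocal overlap. Cry1, which encodes a cryptochrome repressor, had 82 and 58 reads at its strongest site (-0.58, SE 0.29). The strongest sites of Hlf (55 WT reads) and Nfil3 (44) were WT-only. Among genes without an intergenic site were Per1, Per2, Per3, Clock, Nr1d1, Dbp and Tef. This does not mean that they lack YAP peaks. A WT peak inside the gene or within 10 kb was present for 22 of the 24 clock genes (91.7%), against 49.0% of all genes.

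Inflammation and NF-kB genes had an intergenic site at 20 of 50, with 79 sites and 43 kept (54.4%, interval 42.8 to 65.7%). The median log2 ratio at their 11 strong sites was -0.80. Tnfaip3, which encodes the NF-kB inhibitor A20, had 12 sites, and 9 were kept. The strongest, at chr10:19052665-19054434, had 205 WT and 122 KO reads (-0.80, SE 0.18). Il1b, the gene of interleukin 1 beta, had 208 and 127 reads 36621 bp away, at chr2:129407469-129408715 (-0.76, SE 0.17). Ripk2, the gene of a kinase of NOD receptor signalling, had 166 and 86 (-1.03, SE 0.21), and Nfkb1 had 142 and 89 (-0.74, SE 0.22). The strongest sites of Csf2 (68 WT reads) and Cxcl1 (53), which encode secreted inflammatory factors, were WT-only.

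Basal keratinocyte genes had an intergenic site at 16 of 25, with 70 sites and 33 kept (47.1%, interval 35.1 to 59.4%). Cd9, which encodes a tetraspanin, had 10 sites and 200 WT and 127 KO reads at the strongest (log2 ratio -0.70, SE 0.18). Trp63, the gene of the master regulator of epidermal fate p63, had 7 sites and 6 were kept. The strongest lay 98832 bp away, at chr16:25584265-25585614, with 161 and 109 reads (-0.61, SE 0.19). Egfr had 145 and 82 (-0.90, SE 0.22), and Cdh3, the gene of P-cadherin, 137 and 70 (-1.08, SE 0.24). Lama3 (61 WT reads) and Cav1 (41) had WT-only sites, and Krt5, Krt15 and Itgb4 had none in the zone.

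Genes of differentiated keratinocytes had an intergenic site at 19 of 34, with 81 sites and 39 kept (48.1%, interval 36.9 to 59.5%). Krt80, which encodes a keratin of differentiating cells, had 261 WT and 191 KO reads at chr15:101336203-101337443 (log2 ratio -0.47, SE 0.14), the most reads of any listed gene. Klf4, a barrier transcription factor gene, had 188 and 117 (-0.73, SE 0.18). Elovl4, which encodes an elongase of very long fatty acids of the barrier, had 202 and 110 (-0.94, SE 0.18). Gata3 had 150 and 84 (-0.92, SE 0.22), a kept call lost with 50% reciprocal overlap. The sites of Lor (60 WT reads), the loricrin gene, and Tgm3 (82), a transglutaminase gene, were WT-only.

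Hair follicle and stem cell genes had sites at 12 of 23, with 47 sites and 22 kept (46.8%, interval 32.1 to 61.9%). Plet1 had 216 WT and 146 KO reads at its strongest site (log2 ratio -0.60, SE 0.16). Runx1 had 173 and 95 reads (-0.94, SE 0.20). Lrig1, which marks stem cells of the upper follicle, had 166 and 115 (-0.57, SE 0.19), with the kept call lost under 50% reciprocal overlap. Sox9 had 145 and 88 reads (-0.79, SE 0.22) at the strongest of 7 sites. The single Tcf7l1 site, with 51 WT reads, was WT-only.

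EGF family and MAPK feedback genes had sites at 17 of 25, with 59 sites and 33 kept (55.9%, interval 42.4 to 68.8%), and a median log2 ratio of -0.76 at 12 strong sites. The MAPK phosphatase genes Dusp5, Dusp6 and Dusp1 had 177 WT and 109 KO reads (-0.75, SE 0.19), 186 and 114 (-0.76, SE 0.19) and 172 and 109 (-0.71, SE 0.19). Tgfa, which encodes an EGF receptor ligand, had 181 and 129 (-0.52, SE 0.18). The strongest sites of Spry1 (89 WT reads) and Etv5 (49) were WT-only.

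Cytoskeleton and adhesion genes had sites at 11 of 30, with 27 sites and 11 kept (40.7%, interval 22.4 to 61.2%). Ctnnb1, the gene of beta-catenin, had 1 site, with 211 WT and 133 KO reads (log2 ratio -0.71, SE 0.17). Rnd3, which encodes an atypical small GTPase, had 149 and 89 (-0.81, SE 0.21), a call lost with 50% reciprocal overlap. Cdh1 had 133 and 85 (-0.71, SE 0.22), and Rhob 121 and 68 (-0.93, SE 0.25). Myh9 (70 WT reads) and Actn1 (74) had WT-only sites.

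TGF-beta and matrix genes had sites at 11 of 28, with 34 sites and 12 kept (35.3%, interval 19.7 to 53.5%). Tgfbr2, which encodes a TGF-beta receptor, had 11 sites, of which 5 were kept, with 148 WT and 84 KO reads at the strongest (log2 ratio -0.90, SE 0.22). Smad3 had 124 and 63 reads (-1.10, SE 0.26), Tgfbi 116 and 63 (-0.99, SE 0.26) and Fn1, the fibronectin gene, 94 and 44 (-1.30, SE 0.32). All 5 sites of Fst, the gene of the activin inhibitor follistatin, and all 3 of Tnc were WT-only, the strongest with 71 and 61 WT reads. The intervals of the kept share of each of these 10 lists include 42.7%, except the inflammation list, whose lower bound is 42.8%. Sites of that list had a median of 75 WT reads, beside 63 over all intergenic sites, and the kept share rose with reads. The list shares were not weighted by reads, and their intervals count neighbouring sites of 1 gene as separate. The difference was not tested.

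**Figure D5:**
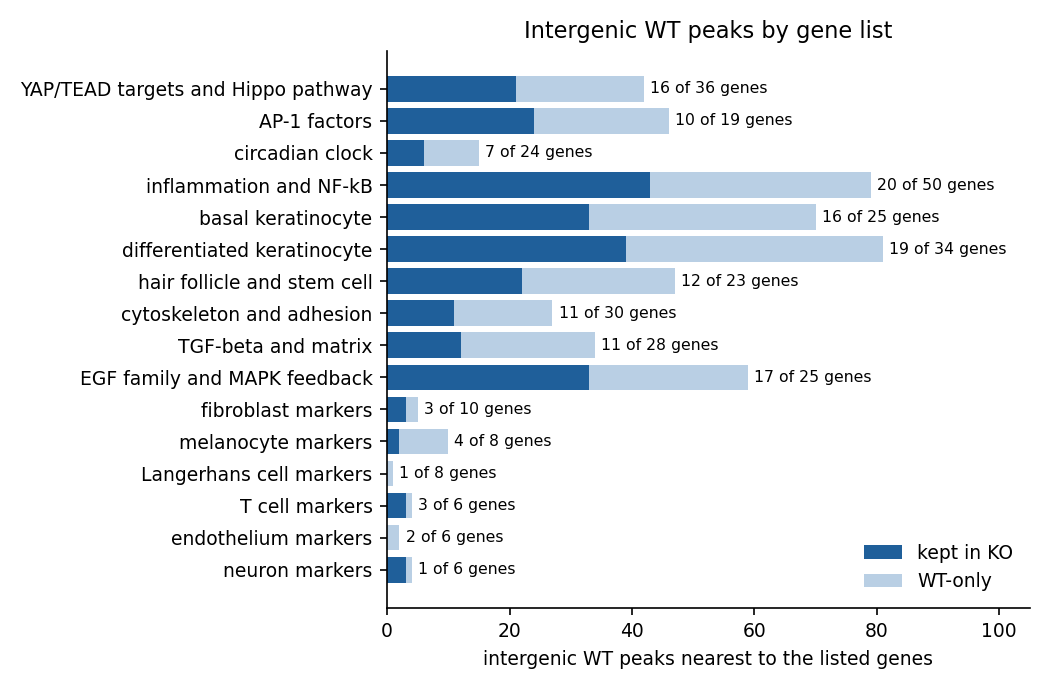
Number of intergenic WT peaks (horizontal axis) nearest to genes of each of 16 lists, split into peaks kept in KO (dark) and WT-only (light), with the number of genes that have such a peak beside each bar. Differentiated keratinocyte genes have the most, 81 peaks, and Langerhans cell markers the fewest, 1 peak.

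Binding does not measure expression, so the labelled tissue could be set only beside peaks near marker genes. The markers of other skin cells had 5 sites at 3 of 10 fibroblast genes, 10 at 4 of 8 melanocyte genes, 1 at 1 of 8 Langerhans cell genes, 4 at 3 of 6 T cell genes and 2 at 2 of 6 endothelial genes. The single Ptprc site is counted in both the Langerhans cell and the T cell list. None of the sites of these skin cell markers was strong. Their highest values were 110 WT and 71 KO reads at Thy1, 79 and 49 at Mitf, 57 WT reads at Ptprc and at Pecam1, and 115 and 62 at Cd2. Neuron markers had 4 sites, all near Map2, of which 3 were kept, and the strongest had 162 and 87 reads (log2 ratio -0.98, SE 0.21). A lower share of cells binding YAP and less binding in each cell cannot be told apart in these lists.

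Of 1005 miRNA hairpins with RefSeq coordinates, 144 lay in the same 10 to 100 kb zone. An intergenic WT site lay within 10 kb of 35 of these (24.3%, interval 17.6 to 32.1%). Over all 1005 hairpins the share was 4.68%, but most of them lie outside the zone, so this is not a like-for-like base. The zone held 12.2 WT peaks per Mb, and the share for other places in it was not computed. No link between hairpins and sites can therefore be read from these counts. The nearest such site was kept for 16 of the 35 (45.7%), against 42.7% of all intergenic sites. Some neighbouring hairpins share 1 site, so the hairpins in these shares are not separate observations. Mature sequences are shown for 3 groups with a shared seed (bases 2 to 8, in capitals), because their hairpins lie in different places and their sites differ. The sequences and coordinates are those of RefSeq on GRCm38.p6.
miR-30a-5p: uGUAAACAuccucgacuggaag
miR-30c-5p: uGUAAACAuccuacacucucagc
miR-193a-3p: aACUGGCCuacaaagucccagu
miR-193b-3p: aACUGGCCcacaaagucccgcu
miR-365-3p: uAAUGCCCcuaaaaauccuuau
Mir30c-2 and Mir30a lie on the same chromosome (chr1:23291701-23291784 and chr1:23272269-23272339). The site 1105 bp from the Mir30c-2 hairpin had 123 WT and 78 KO reads (log2 ratio -0.73, SE 0.23), and the one 1150 bp from Mir30a had 79 and 57 (-0.55, SE 0.30). Hairpins of the seed shared by miR-193a and miR-193b are paired with a miR-365 hairpin at each of their loci. On chromosome 16, the site 309 bp from Mir365-1 (chr16:13453840-13453926) had 55 WT and 35 KO reads and was kept, and that 633 bp from Mir193b had 49 WT reads and was WT-only. On chromosome 11, the nearest sites of Mir193a (59 WT reads) and Mir365-2 (45) were WT-only.

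Other hairpins with an intergenic site nearby were chosen after their values were seen. Mirlet7a-1 and Mirlet7f-1, of the let-7 family, shared a site with 209 WT and 136 KO reads, 7858 bp from the first hairpin. The 6 hairpins of the Mir17 to Mir92-1 cluster on chromosome 14 shared a WT-only site of 58 reads, 2815 bp from Mir17. Mir183, Mir96 and Mir182 shared a site with 78 and 48 reads. A site with 214 and 128 reads lay 4450 bp from Mir6516. Of these sites the let-7 and Mir6516 sites passed 120 WT reads.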

How the data were processed

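YAP ChIP-seq peaks of mouse epidermis were analysed from 2 deposited lists, 1 per genotype. The labels name 4 samples, and the 2 inputs were not used here. Per the submitters' processing notes, Trimmomatic 0.36, SAMtools 1.5 and MACS2 2.1.1 were used with mm10, with no role or setting named in the sources used here. Each deposited list has 10 columns. The deposited score is 10 times the −log10 q, truncated. The deposited fold is the ratio of summit signal to background, and the authors also give −log10 p and −log10 q. The lowest −log10 q was 2.01 in WT and 2.03 in KO. These peak values are the authors'.

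Whole summit reads were solved from fold and p after a search for the scaling of each list (0.694 in WT, 0.842 in KO). Whole reads matched the −log10 p within 0.002 for 100% of peaks, against 0.935 and 0.397% with the scaling 3% off. Library depth is otherwise unknown. On simulated lists of 35712 and 14697 peaks, reads were returned exactly for 99.99 and 100% of peaks. That checks the solving, not whether the lists follow those formulas.

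Summits were placed against 21631 protein-coding spans of a RefSeq table of GRCm38.p6 (chromosomes 1 to 19 and X). Kept means an overlap of at least 1 bp, checked with bedtools 2.31.1. Ratios pair a WT peak with the strongest overlapping KO peak and subtract 9.63 reads from both. Read bins ended at 40, 50, 60, 70, 80, 100, 120 and 150 reads. Intervals are exact 95% Clopper-Pearson intervals over sites, which share 1 pool, and cover counting error only. Start windows and mature miRNAs came from RefSeq, the windows of chromosome 18 were not used here, and the start-window table does not hold every gene. Motifs were to be read under all summits. No genome of the build was used here, so start windows, chosen after seeing the data, replaced them. Computations used Python 3.11.15, NumPy 2.4.6, pandas 2.3.3 and SciPy 1.17.1.

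The members and gene lists were chosen with earlier results of these data known. Sites were named by rule: the 8 kept and 8 WT-only sites with the highest WT score, the 6 KO-only sites with the highest KO score, the 4 highest and 4 lowest ratios among strong kept sites, the 8 genes and 5 clusters with most members, and, per list, the 4 genes with the highest-scoring site and up to 2 whose highest is WT-only. One cluster and 1 listed gene of that rule are not reported here. lncRNAs and miRNAs were not in that rule and were chosen after seeing the data.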

Additional observations from a re-analysis of the deposited data

How the results depend on the processing

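No paired analysis was possible because both genotypes have a single list, and for the same reason no replicate could be left out. Motifs under the summits, with their alternative window, were not run, since no genome was used. Among the alternative values of the 17 main results, 38 moved by less than their counting interval or the set limit (0.1 on the log2 scale for ratios, 1.5 times for counts) and 26 by more. Other position limits gave these shares of the WT and KO lists: 24.4 and 26.8% at 5 to 100 kb, 14.4 and 15.8% at 10 to 50 kb, 13.4 and 14.5% at 20 to 100 kb, and 13.2 and 14.5% against spans of all annotated genes. With −log10 q of at least 10 the shares were 20.5 and 22.4%, and with at least 80 reads they were 21.8 and 24.1% (2293 and 545 sites). The kept share was 37.0% with 50% reciprocal overlap (32.1% of all WT peaks), 78.3% when as many top-scoring WT peaks were used as there are KO peaks, and 70.1% within the top 50% of WT peaks by score (68.9% of all). KO sites overlapping a WT peak made up 83.0% under reciprocal overlap, 93.9% for summits at most 200 bp apart and 82.5% with the reduced WT list. A log2 ratio of -1 or lower was found at 32.3% of sites of at least 100 reads (36.8% of all such WT sites) and 13.8% at 150 reads (18.7%), alternatives chosen after seeing the data. With score deciles in place of read bins, the weighted kept share was 42.9% inside genes and 42.6% in the near flanks, beside 42.7% of intergenic sites. Clusters of 2 or more held 46.8% of sites with joining at 5 kb and 80.1% at 20 kb. The median log2 ratio of strong kept sites stayed between -0.89 and -0.78 under each alternative run. Of 114 sites followed one by one, 8 lost the kept call under an overlap alternative. The 114 include WT-only sites, which had no kept call to lose, so the 8 are not a share of 114. For these values the cause was not tested, beyond the change of limits that defines each alternative. WT sites under 50 reads were seldom kept, and the part of depth in that was not tested.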
